A study of Sus scrofa with 8 samples.

Results

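Transcript levels of 9 neutrophil and calgranulin genes were compared between skin sites injected with IL-15 and uninjected sites of the same pigs. The set comprised the calgranulins S100A8, S100A9 and S100A12, the receptors CSF3R, CXCR1, CXCR2 and TREM1, the membrane protease MMP25 and the oxidase subunit NCF1. The genes were taken by name, with no threshold on a measured value, but earlier results of these data were known when they were chosen. Of the 9, 6 were found under their symbol in the count table of 31907 genes, and S100A9 and CXCR2 were found through the Entrez ID that the table gives for them. CXCR1 had no row that could be matched and was not analysed here, which left 8 genes, each with 1 Ensembl ID. All 8 passed the filter on low counts and stood among the 19862 genes tested.

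Neutrophils are short-lived phagocytes that circulate in blood and leave it for tissue along chemokine gradients, above all those of CXCL8 and related ligands read by CXCR1 and CXCR2. S100A8 and S100A9 are calcium-binding proteins that pair as calprotectin, fill the neutrophil cytosol and withhold zinc and manganese from microbes, and S100A12 is a relative that binds the receptor RAGE. In human and mouse skin calgranulins are also made by keratinocytes of wounded or inflamed epidermis, so in skin they are not specific to neutrophils.

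The tissue was skin of wild-type Yorkshire swine. The injected group held 4 biopsies, from sites 12d and 12c of pig 14 and from sites 12e and 12c of pig 13. IL-15 had entered the dermis there 3 h earlier, as a dose of 200 ng dissolved in saline (100 µl). The control group held 4 biopsies without any injection: pig 14 gave sites 7e and 6b, and pig 13 gave sites 7b and 6b. Since only 2 animals were used, p-values reflect how far sites differ inside this pair of pigs. No site received saline alone, and every injected site carried the number 12 while control sites carried 6 or 7, so the cytokine, the needle and the place on the skin cannot be told apart.

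The biopsies had 28471089 to 36070107 counts in the injected group and 28730579 to 33567610 in the control group. Skin markers were present throughout, with levels given as CPM, the counts scaled to a common library size by the TMM method. The basal keratin KRT5 ranged over 5673 to 8267 CPM at injected sites and over 3171 to 10850 CPM at control sites. One control stood apart: at site 7b of pig 13 the collagen gene COL1A1 was at 8115 CPM, against 38270 to 99270 CPM in the other controls. Fold changes that moved strongly without this biopsy are given with and without it.

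The calgranulins were the most abundant of the 8 genes, and the receptors and the oxidase subunit were low. Per kilobase of gene length, S100A12 averaged 104 CPM over the 8 biopsies, S100A8 47.8 and S100A9 32.3, means that site 7b of pig 13 raised, since the medians were 71.1, 26.8 and 15 CPM per kilobase. Next came CSF3R at 2.36 CPM per kilobase, CXCR2 at 1.95, NCF1 at 1.71, MMP25 at 1.45 and TREM1 at 0.33. S100A12 was above S100A8 in 8 of 8 biopsies, S100A8 above S100A9 in 7, S100A9 above CSF3R in 8 and MMP25 above TREM1 in 8. The order of CXCR2 and NCF1 was not kept, with CXCR2 the higher in 3 of 8 biopsies. TREM1 rested on 8 to 33 counts per biopsy, while the calgranulins had 78 to 6223.

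None of the 8 genes differed between injected and control sites beyond the spread between biopsies. In edgeR's quasi-likelihood test with pig as a block, 0 of 8 were called at an adjusted p under 0.05, against 0.0352% of all genes tested. At an unadjusted p under 0.05 there was 1 member, MMP25, where 4.54% of all genes passed, and 2.15% of all genes passed with a negative fold change. DESeq2 called 0 of 8, against 0.292% of all genes, and again had MMP25 alone at an unadjusted p under 0.05. The fold change was below 0 for 7 of the 8 genes, with a median log2 value of -0.58, beside -0.01 over all genes tested, of which 51.8% were below 0. Without site 7b of pig 13 it was below 0 for 6 of the 8, with a median of -0.17 beside 0.00 over all genes, and 0 of 8 were called, against 0.0957% of all genes. In no member did the 4 injected and 4 control values separate without overlap, which 2.07% of all genes did, 0.916% with every injected value below every control value.

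**Figure D1:**
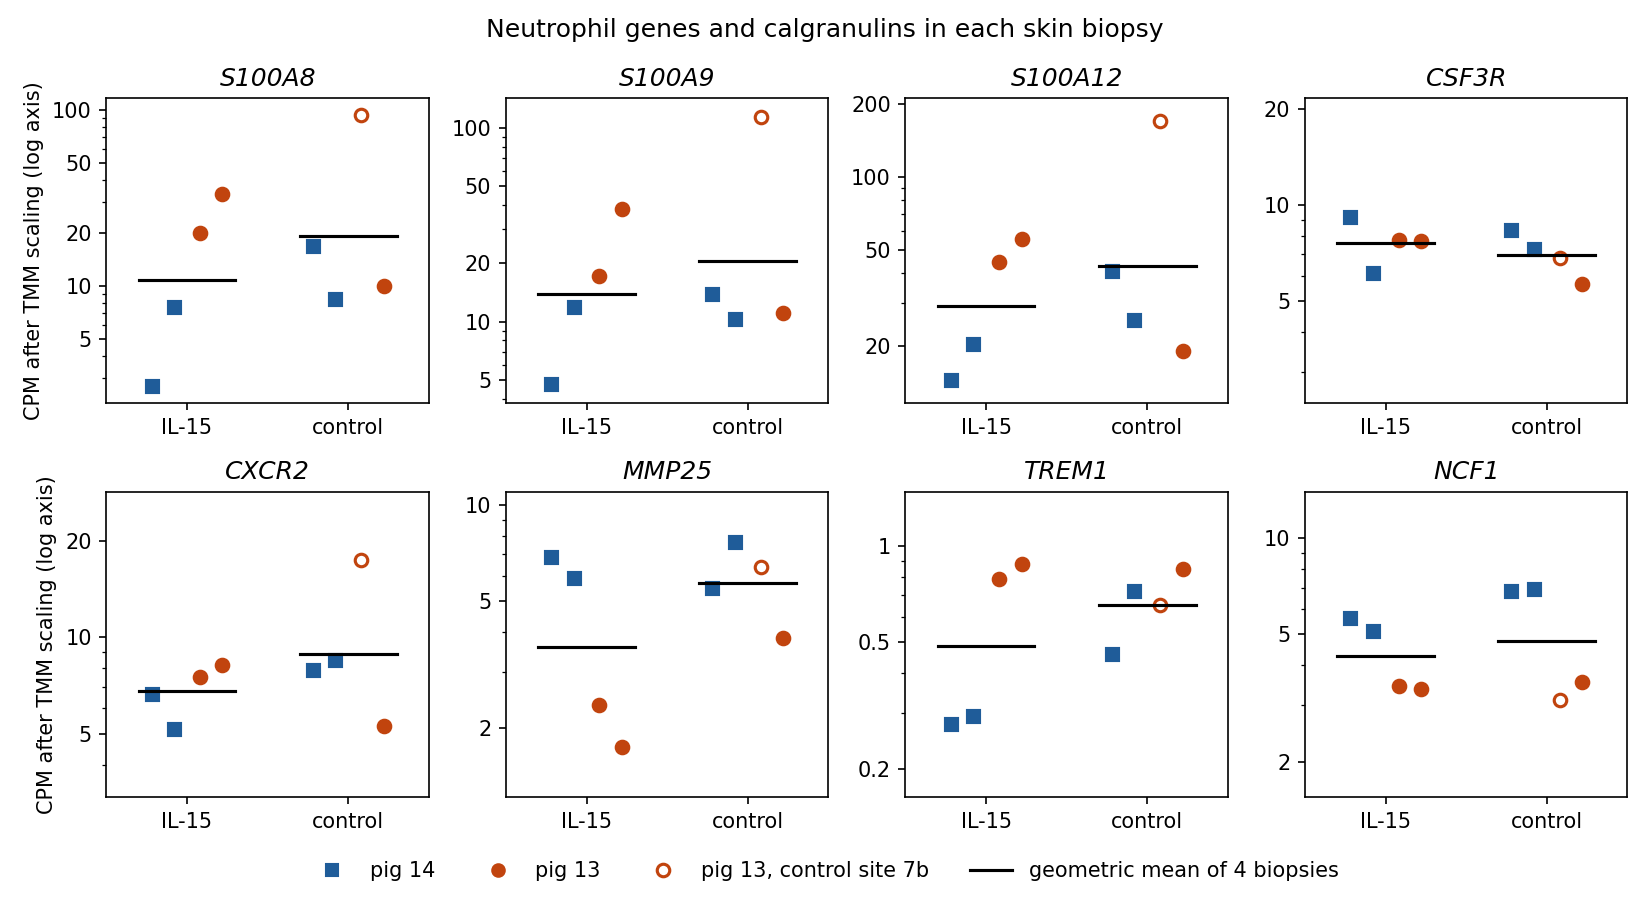
Level of each of the 8 genes (CPM after TMM scaling, log axis) in 4 IL-15-injected and 4 control biopsies, 1 point per biopsy, with squares for pig 14, circles for pig 13, an open circle for control site 7b and a bar at the geometric mean. S100A8, S100A9, S100A12 and CXCR2 are highest at site 7b, while the remaining genes overlap between the groups with no such point.

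All 3 calgranulins were highest at site 7b and lowest at injected site 12d of pig 14. S100A8 was at 2.70 and 7.65 CPM at the injected sites of pig 14, against 17.0 and 8.48 CPM at its control sites, and at 19.98 and 33.3 CPM at the injected sites of pig 13, against 93.9 and 10 CPM at its control sites. In pig 14 both injected sites were thus below both controls, whereas in pig 13 they lay between control site 6b, the lower, and control site 7b, the higher. The mean was 15.9 ± 13.7 CPM over injected sites and 32.3 ± 41.2 CPM over control sites (SD, n = 4 each), with a log2 fold change of -1.12 ± 0.73 (SE; adjusted p = 0.964 by edgeR, 95% confidence interval -2.89 to 0.64).

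S100A9, the calprotectin partner of S100A8, was at 4.74 and 11.9 CPM at the injected sites of pig 14, against 13.9 and 10.3 CPM at its control sites, and at 17.3 and 38.0 CPM at the injected sites of pig 13, against 114.5 and 11.2 CPM at its control sites. Here the groups overlapped within both pigs. Its log2 fold change was -0.88 ± 0.74 (SE; adjusted p = 0.964 by edgeR).

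S100A12 was at 14.5 and 20.3 CPM at the injected sites of pig 14, against 40.8 and 25.6 CPM at its control sites, and at 44.6 and 55.2 CPM at the injected sites of pig 13, against 170.0 and 19.0 CPM at its control sites. The pattern was that of S100A8, with both injected sites of pig 14 the lower and those of pig 13 between the 2 controls. Its log2 fold change was -0.93 ± 0.62 (SE; adjusted p = 0.964 by edgeR).

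The size of these values rested on site 7b, and for S100A9 the direction as well. Without that biopsy the log2 fold changes were -0.29 ± 0.85 for S100A8, 0.17 ± 0.63 for S100A9 and -0.09 ± 0.60 for S100A12 (SE; adjusted p = 0.973, 0.979 and 0.991 by edgeR). The control mean was then 11.8 ± 4.54 CPM for S100A8, 11.8 ± 1.85 CPM for S100A9 and 28.5 ± 11.2 CPM for S100A12 (SD, n = 3). In these whole biopsies, fewer cells that make a transcript and less of it per cell cannot be told apart.

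**Figure D2:**
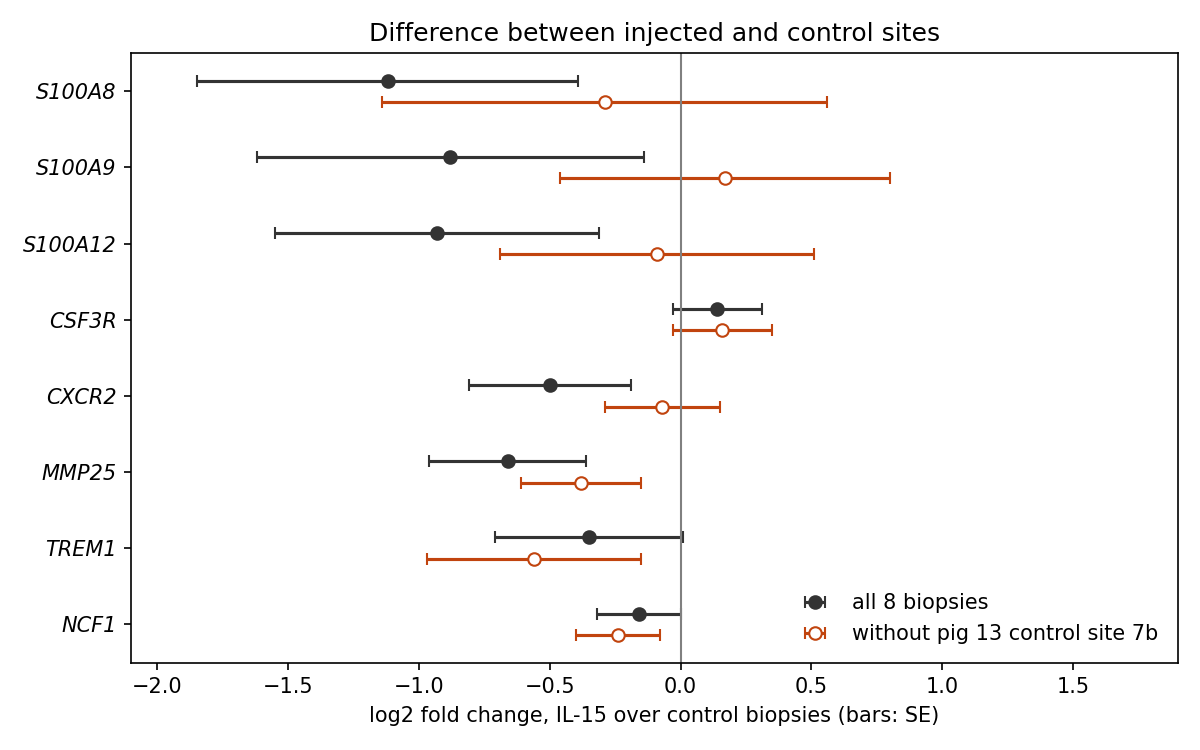
Log2 fold change of IL-15 over control biopsies with its SE for each gene, fitted on all 8 biopsies (filled) and without control site 7b of pig 13 (open). The values of S100A8, S100A9, S100A12 and CXCR2 move towards 0 without that site, that of S100A9 past it to 0.17, while CSF3R stays at 0.14 and 0.16.

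The receptors that tie neutrophils to their growth factor and chemokines showed little difference. CSF3R, the receptor for granulocyte colony-stimulating factor, was at 9.17 and 6.10 CPM at the injected sites of pig 14, against 8.37 and 7.29 CPM at its control sites, and at 7.76 and 7.72 CPM at the injected sites of pig 13, against 6.80 and 5.65 CPM at its control sites. It was the steadiest of the 8 genes, with 7.69 ± 1.25 CPM over injected sites and 7.03 ± 1.13 CPM over control sites (SD, n = 4 each). Its log2 fold change was 0.14 ± 0.17 with a 95% confidence interval of -0.23 to 0.51 (adjusted p = 0.964 by edgeR). It was also the only member with both injected sites above both controls in pig 13, where 18.2% of all genes had this pattern.

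CXCR2, a receptor for CXCL8 and its relatives, was at 6.68 and 5.19 CPM at the injected sites of pig 14, against 7.91 and 8.51 CPM at its control sites, and at 7.53 and 8.17 CPM at the injected sites of pig 13, against 17.5 and 5.29 CPM at its control sites. As with the calgranulins, site 7b had the highest value. The log2 fold change was -0.50 ± 0.31 on all biopsies and -0.07 ± 0.22 without site 7b (SE; adjusted p = 0.964 and 0.977 by edgeR).

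MMP25, a protease anchored in the neutrophil membrane, had the smallest p of the 8 genes. It was at 6.85 and 5.92 CPM at the injected sites of pig 14, against 5.51 and 7.67 CPM at its control sites, and at 2.37 and 1.75 CPM at the injected sites of pig 13, against 6.42 and 3.84 CPM at its control sites. The lower values were thus those of the injected sites of pig 13, and in pig 14 the groups overlapped. It was the only member with both injected sites below both controls in pig 13, where 16.6% of all genes had this pattern. The log2 fold change was -0.66 ± 0.30 (SE; adjusted p = 0.964 by edgeR, 0.0495 unadjusted), and -0.38 ± 0.23 without site 7b.

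TREM1, a receptor that amplifies inflammatory signals of neutrophils and monocytes, was at 0.277 and 0.294 CPM at the injected sites of pig 14, against 0.459 and 0.725 CPM at its control sites, and at 0.789 and 0.876 CPM at the injected sites of pig 13, against 0.656 and 0.846 CPM at its control sites. Both injected sites of pig 14 were the lowest of all 8 biopsies, at 8 counts each. Its log2 fold change was -0.35 ± 0.36 (SE; adjusted p = 0.964 by edgeR) and -0.56 ± 0.41 without site 7b.

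NCF1, the cytosolic organizer of the phagocyte NADPH oxidase, separated the animals rather than the treatments. It was at 5.64 and 5.11 CPM at the injected sites of pig 14, against 6.82 and 6.95 CPM at its control sites, and at 3.45 and 3.37 CPM at the injected sites of pig 13, against 3.11 and 3.54 CPM at its control sites. Every biopsy of pig 14 was above every biopsy of pig 13, a pattern of 1 of the 8 genes and of 9.87% of all genes, while 18.6% of all genes separated the pigs in either direction. The treatment difference was -0.16 ± 0.16 in log2 (SE; adjusted p = 0.964 by edgeR), with a 95% confidence interval of -0.51 to 0.19.

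Beside this difference in NCF1 between the 2 animals, transcripts of blood, of other leukocytes and of fibroblasts also stood higher in pig 14. The haemoglobin gene HBB was at 173 to 459 CPM in pig 14 and 4.15 to 17.9 CPM in pig 13, and all 3 tested erythroid genes separated the pigs in this direction. So did 5 of 6 tested T and NK cell genes and 5 of 12 monocyte and macrophage genes, against 9.87% of all genes. The same held for 3 of 15 tested neutrophil surface receptors (ITGB2, PTPRC and TYROBP) and, outside blood, for 4 of 6 fibroblast genes. Among the oxidase partners of NCF1, the GTPase RAC2 did so (26.3 to 48.5 CPM in pig 14 and 13.3 to 18.1 CPM in pig 13), and 1 of 5 tested partners did in all. Of 13 tested neutrophil cytosolic and nuclear genes, 4 separated with pig 14 the higher and 2, PADI4 and CSTA, with pig 13 the higher. Of 8 tested granule genes, 0 separated with pig 14 the higher and 1, LCN2, with pig 13 the higher. Every pig 13 biopsy was above every pig 14 biopsy for 1734 of 19862 genes. CSF3R, the calgranulins, CXCR2, MMP25 and TREM1 overlapped between the animals, as did the surface receptors CD177 and LTB4R. The part of blood, leukocyte or fibroblast content in the level of NCF1 was not tested.

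Whether the difference between injected and control sites itself differed between the animals was asked with an interaction term, written as pig 14 minus pig 13. No member was called, and no gene of the 19862 was (0% in edgeR), with 1 of 8 members and 8.22% of all genes at an unadjusted p under 0.05. That member was MMP25, whose log2 fold change was -0.04 ± 0.30 in pig 14 and -1.32 ± 0.32 in pig 13, a difference of 1.28 ± 0.44 (SE; adjusted p = 0.513 by edgeR). TREM1 had -1.04 ± 0.52 in pig 14 and 0.15 ± 0.44 in pig 13, a difference of -1.19 ± 0.68 (SE; adjusted p = 0.675 by edgeR). The interaction of the calgranulins was between -0.34 and 0.64 with SEs of 1.36 to 1.61. Without site 7b the interaction was -2.72 ± 1.07 for S100A8, -1.85 ± 1.01 for S100A9, -2.33 ± 0.42 for S100A12 and -1.04 ± 0.32 for CXCR2 (SE; adjusted p = 0.464, 0.564, 0.193 and 0.303 by edgeR), and that of MMP25 was 0.86 ± 0.40. Pig 13 then had a single control, so these values rest on its site 6b. In pig 14 both injected sites were below both controls for 5 of the 8 genes, namely S100A8, S100A12, CXCR2, TREM1 and NCF1, and for 21.0% of all genes.

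Other genes of neutrophil biology, taken from lists, did not pass the test either. In the 16 lists used here, 131 of 164 symbols had a gene, 121 genes were tested, 0 were called by edgeR and 10 had an unadjusted p under 0.05, where 4.54% of all genes had. Of these 10, 2 were in neutrophil lists, 4 in the differentiated keratinocyte list and 2 in the endothelial list. The remaining 2, in the stressed keratinocyte list, were 2 Ensembl IDs of the same gene, DEFB1. Granule proteins had a median log2 fold change of -0.17 over 8 tested genes, with 3 above and 5 below 0, and of -0.05 without site 7b. Lactoferrin, encoded by LTF, had -0.64 ± 0.54, and -0.05 ± 0.24 without site 7b. The gelatinase gene MMP9 had -0.93 ± 1.08, and without that site 0.72 ± 0.15 (SE; adjusted p = 0.308 by edgeR). Neutrophil elastase, ELANE, had -0.11 ± 0.17. Myeloperoxidase, whose gene MPO is read in neutrophil precursors, had 0 or 1 count in every injected biopsy and 0, 0, 18 and 4 counts in the controls from sites 7e and 6b of pig 14 and 7b and 6b of pig 13. In these libraries, finding 0 counts bounds the level at 0.0796 to 0.115 CPM (3 counts), for counting error only.

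The 5 tested oxidase partners of NCF1 had a median of -0.09, and of 0.06 without site 7b, with 0 called, and RAC2 had -0.09 ± 0.19. The 15 tested surface receptors had a median of -0.15, with 5 above and 10 below 0. Without site 7b this turned to 0.15, with 12 of 15 above 0. ITGAM, the alpha chain of the integrin Mac-1, had -0.02 ± 0.21, ITGB2, its beta chain, 0.02 ± 0.17, and TYROBP, the adaptor through which TREM1 signals, 0.08 ± 0.20. The 13 tested cytosolic and nuclear genes had a median of 0.05, and the transcription factor gene CEBPD had the smallest p of that list (0.49 ± 0.18, adjusted p = 0.964 by edgeR).

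The list of ligands that recruit neutrophils or prolong their life, which also holds the receptor IL1R2, had the highest median among the neutrophil lists. That median was 0.17 over 7 tested genes and 0.66 without site 7b. CSF3, which encodes the ligand of CSF3R, was at 5.57, 8.39, 9.69 and 8.49 CPM over the injected sites, against 4.59, 3.97, 6.88 and 5.95 CPM over the control sites. Its log2 fold change was 0.60 ± 0.17 (SE; adjusted p = 0.85 by edgeR), the smallest p of this list. Both injected sites were above both controls in each pig. In pig 13 alone, 18.2% of all genes had this pattern, and the share with it in both pigs was not counted. CXCL2, a ligand of CXCR2, had 0.87 ± 0.43 and IL1B 1.26 ± 0.62, neither of which passed (adjusted p = 0.964 by edgeR for both). Without site 7b they had 1.38 ± 0.36 and 2.35 ± 0.61 (SE; adjusted p = 0.704 and 0.541 by edgeR). CXCL8 was at 0.830, 2.501, 2.04 and 1.30 CPM in injected biopsies and at 2.12, 0.764, 19.97 and 0.242 CPM in controls from sites 7e and 6b of pig 14 and 7b and 6b of pig 13, with its high value at the site where the calgranulins were high.

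Among markers of other cells edgeR called no gene, and DESeq2 called 1, the endothelial gene ACKR1 (0.56 ± 0.09 by edgeR; adjusted p = 0.173 by edgeR and 0.00039 by DESeq2), a chemokine receptor of venules. The median log2 fold change was 0.13 for basal keratinocytes (0.38 without site 7b), -0.46 for differentiated ones (-0.24) and 0.04 for monocytes and macrophages (0.11). It was 0.08 for mast cells (0.06 without site 7b), -0.10 for T and NK cells (0.03) and -0.09 for erythroid genes (-0.42). For fibroblasts it was 0.33 (0.01 without site 7b), for endothelium 0.33 (0.38) and for adipocytes 0.82 (0.43). Of 15 genes of stressed keratinocytes only 3 symbols had a gene, DEFB1, PI3 and LCN2, and PI3 was not tested. The median over 2 Ensembl IDs of DEFB1 and 1 of LCN2 was -0.35 (-0.27 without site 7b). It says little of stressed keratinocytes, as KRT16, KRT17 and the SPRR genes of the list had no gene.

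At site 7b the 8 genes divided into those above all other controls and those within or below their range. The ratio of site 7b to the median of the other 3 controls was 10.3 for S100A9, 9.38 for S100A8, 6.64 for S100A12 and 2.21 for CXCR2. It was 1.16 for MMP25, 0.933 for CSF3R, 0.904 for TREM1 and 0.457 for NCF1. Site 7b was above every other control for 4 of the 8 genes and for 29.5% of all genes. The same 4 exceeded 2 times the highest other control, which 1.26% of all genes did. These ratios describe 1 biopsy and have no test. The ratio of S100A8 to CSF3R per kilobase was 85.2 there, with 1.82 to 26.6 over injected sites and 7.18 to 12.5 over the remaining controls. Together the 3 calgranulins held 0.0413% of the counts of this biopsy, with 0.0021% to 0.0132% over injected sites and 0.00405% to 0.00656% over the remaining controls.

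Genes of several cell types stood higher at site 7b beside the calgranulins. Markers of differentiated keratinocytes, with 10 of 12 list symbols found, summed to 26940 CPM there. Their sum was 6764 to 13980 CPM over injected sites and 10710 to 13890 CPM over the remaining controls. It rested mainly on KRT1, KRT10 and KRT2, at 9706, 8387 and 4715 CPM at site 7b. Of the 10 genes, 7 were above every other control, while CDSN, DSC1 and KLK5 were within their range. Basal keratinocyte markers summed to 22470 CPM, with 12720 to 16840 CPM over injected sites and 7804 to 14040 CPM over the remaining controls. This sum rested mainly on KRT5 and KRT14, at 10850 and 7563 CPM. Of 9 basal genes, 7 were above every other control, while KRT15 was within their range and DST below it. The protease inhibitor gene CSTA, which keratinocytes and neutrophils both express, was at 178 CPM, against 23.7 to 39.9 CPM. Of 8 tested granule genes, 3 exceeded 2 times the highest other control, which 1.26% of all genes did. LTF was at 144 CPM against 32.3 to 57.7 CPM, MMP9 at 108 CPM against 5.74 to 9.89 CPM and LCN2 at 37.5 CPM against 11.3 to 17.0 CPM. LCN2 also stands in the list of stressed keratinocyte genes. The other tested granule genes, ELANE, PRTN3, AZU1, NPG1 and MMP8, were not above every other control. ELANE was at 3.80 CPM against 3.17 to 4.05 CPM and MMP8, the neutrophil collagenase, at 0.710 CPM against 0.989 to 1.42 CPM. Of 15 tested neutrophil surface receptors, 8 were above every other control, which 29.5% of all genes were. Of these 8, CD177 (3.06 CPM against 1.27 to 1.45 CPM) and LTB4R (6.50 CPM against 2.00 to 2.79 CPM) exceeded 2 times the highest. Fibroblast markers summed to 19100 CPM, against 76770 to 192200 CPM in the other controls. The part of epidermal or neutrophil content in the calgranulin levels of this biopsy was not tested.

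**Figure D3:**
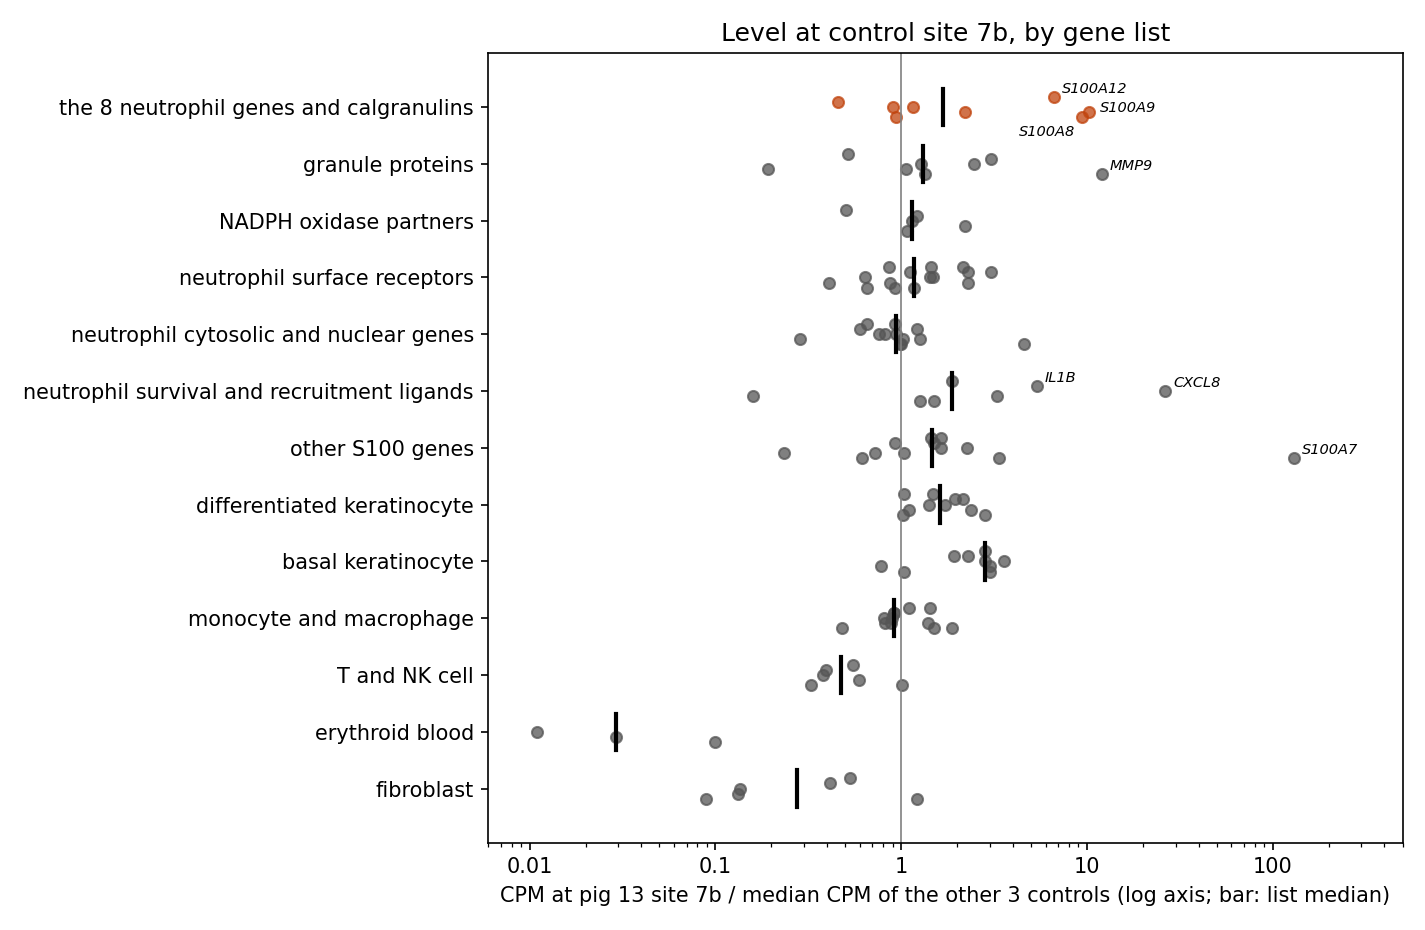
Ratio of the CPM at control site 7b of pig 13 to the median CPM of the other 3 controls (log axis), with 1 point per tested gene, a bar at the median of each list and names for genes at 5 or more. The 8 neutrophil genes and calgranulins, in red, spread from 0.457 for NCF1 to 10.3 for S100A9, and basal keratinocyte markers have a median of 2.82.

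The calgranulin genes lie together on chromosome 4 of Sscrofa11.1, and their neighbours were followed along it. S100A8 (ENSSSCG00000006590, 96209551 to 96210602, plus strand), S100A12 (ENSSSCG00000032857, 96225693 to 96227137, plus strand) and S100A9 (ENSSSCG00000006588, 96236113 to 96239285, minus strand) are adjacent protein-coding genes, and no annotated gene overlaps any of the 3. S100A7, psoriasin, is the next S100 gene on the side of lower coordinates, starting 32.8 kb before S100A8. S100A7 was at 0, 1.21, 1.31 and 0.132 CPM in injected biopsies and at 0.706, 0.382, 49.5 and 0.0605 CPM in control biopsies from sites 7e and 6b of pig 14 and 7b and 6b of pig 13. Nearly all of its counts, 1812, came from site 7b, and elsewhere it had 40 counts at most. Its log2 fold change was -3.25 ± 2.37 on all biopsies and 1.01 ± 1.38 without that site (SE; adjusted p = 0.964 and 0.938 by edgeR). Another gene is annotated as S100-A7-like, so how reads were split between them is uncertain.

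The S100 genes farther along the chromosome did not share this profile. S100A2, a keratinocyte S100 gene, was at 3.35 times the median of the other controls at site 7b, S100A4 at 2.25 times, and S100A16, S100A11, S100A5 and S100A6 were at 1.44 to 1.64 times. S100A10 was at 1.03 times, S100A13 at 0.922 and S100A1 at 0.617. S100A3, known from the hair cuticle, was the lowest, at 111 CPM against 342 to 488 CPM in the other controls, a ratio of 0.234. S100A14 had 0 counts in all biopsies, and its annotated span lies within that of S100A13 on the same strand, so its reads may not have been assigned. Over the 12 tested S100 genes outside the calgranulin members the median log2 fold change of injected over control was 0.03, with 6 above and 6 below 0.

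**Figure D4:**
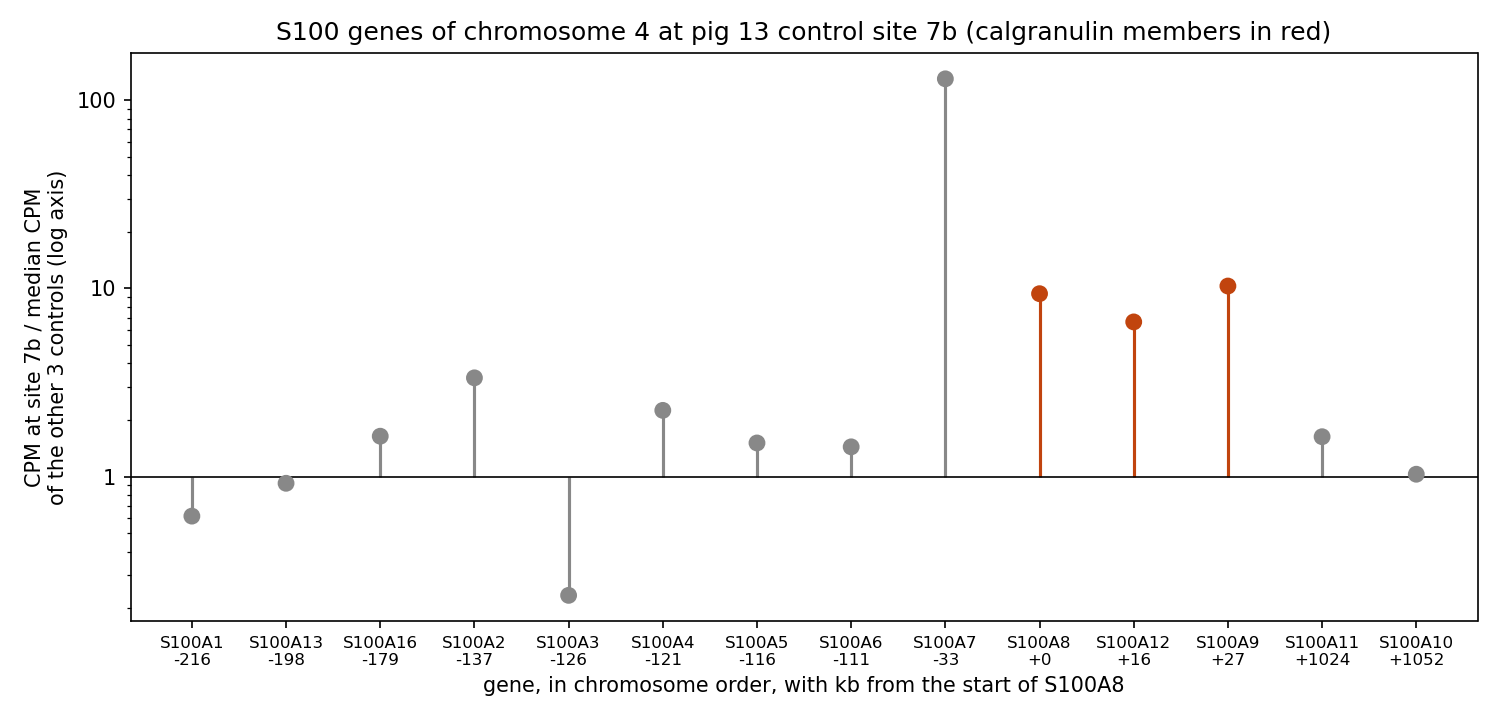
CPM at control site 7b of pig 13 over the median CPM of the other 3 controls (log axis) for 14 S100 genes of chromosome 4 in chromosome order, with the distance in kb from the start of S100A8 under each name and the calgranulin members in red. S100A7 (130) and the 3 calgranulins (6.64 to 10.3) stand above the S100 genes on both sides, which lie between 0.234 and 3.35.

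The remaining genes lie on other chromosomes of the same build. NCF1 (ENSSSCG00000007722, 11820285 to 11839426) and MMP25 (ENSSSCG00000021569, 39130777 to 39142303) are on chromosome 3, CSF3R (ENSSSCG00000025795, 92550159 to 92565477) on chromosome 6, TREM1 (ENSSSCG00000033251, 36510253 to 36531796) on chromosome 7 and CXCR2 (ENSSSCG00000016184, 120218992 to 120231041) on chromosome 15. All are annotated as protein-coding, and the annotation used places no other gene over any of them.

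How far the 8 genes varied together was described by Pearson's r of log2 CPM, with the mean of each pig taken out. S100A8 had r = 0.95 with S100A9 and r = 0.97 with S100A12 over the 8 biopsies, and r = 0.93 and r = 0.95 over the 7 biopsies without site 7b. The likeness of the calgranulins to each other was therefore also seen at the other sites. With CSF3R, S100A8 had r = 0.07, and with NCF1 r = 0.05. CXCR2 had r = 0.80 with S100A8, r = 0.83 with S100A9 and r = 0.91 with S100A12. Without site 7b these were r = 0.57, r = 0.47 and r = 0.75. MMP25 and S100A8 had r = 0.25 on all biopsies and r = -0.69 without site 7b. NCF1 and TREM1 had r = 0.86 with each other and, without site 7b, r = 0.84. These points share 2 animals and their libraries, so the values are descriptions.

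**Figure D5:**
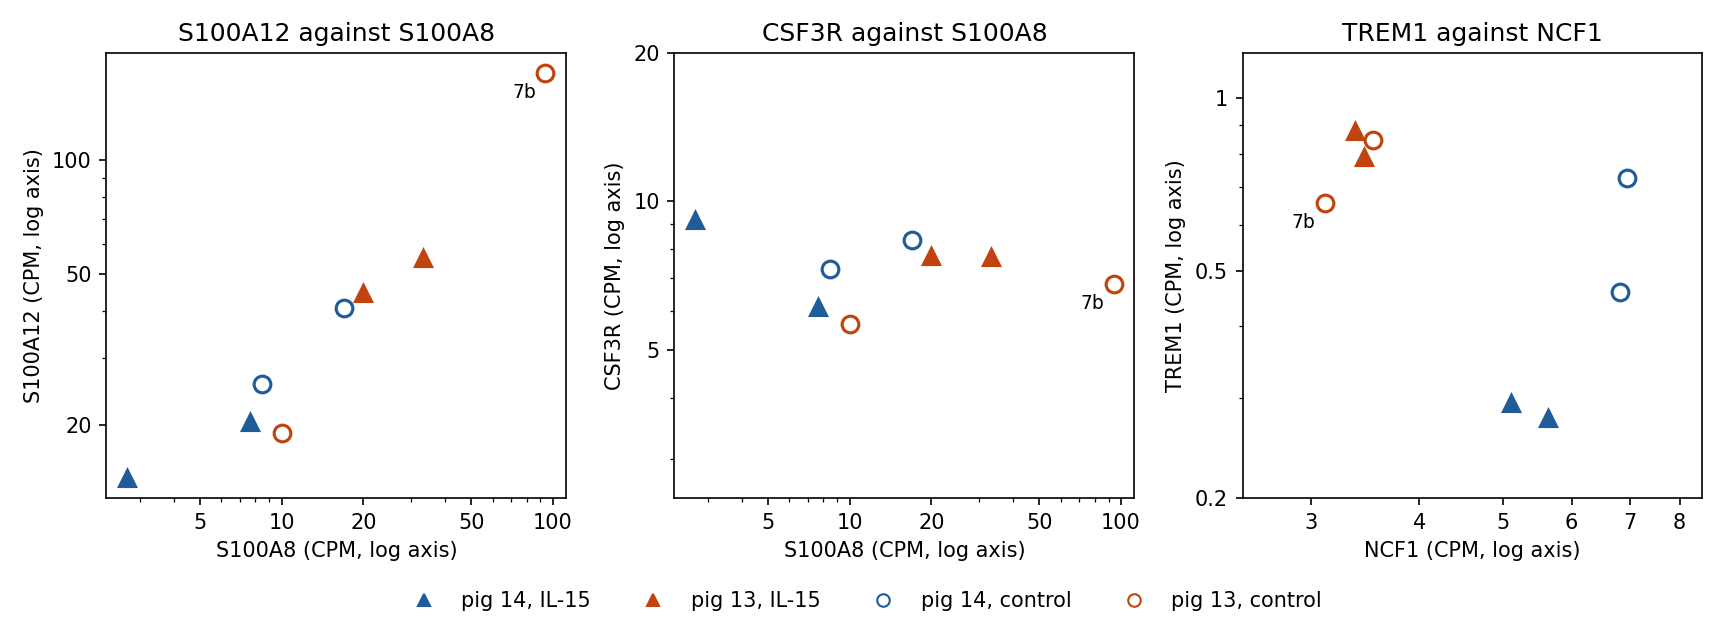
Levels of pairs of genes in the 8 biopsies (CPM, both axes log), with triangles for IL-15-injected and open circles for control biopsies, blue for pig 14 and red for pig 13, and site 7b marked. S100A12 follows S100A8 over its whole range of 2.70 to 93.9 CPM, CSF3R stays between 5.65 and 9.17 CPM, and NCF1 lies higher in pig 14.

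The proportions within the calgranulin group were less variable than its level. S100A12 over S100A8 per kilobase was 5.78, 2.87, 2.41 and 1.79 in injected biopsies and 2.59, 3.26, 1.95 and 2.05 in control biopsies. S100A9 over S100A8 per kilobase was 1.03, 0.915, 0.508 and 0.672 in injected biopsies and 0.479, 0.714, 0.716 and 0.655 in control biopsies. Both ratios were highest at injected site 12d of pig 14, where S100A8 was lowest at 78 counts, and site 7b was within the range of the other biopsies.

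Among 13583 genes with a symbol and a mean of at least 1 CPM, the 5 whose profile was most like that of S100A8 were SDCBP2, SMNDC1, RARS2, TIMM23B and BZW1, with r from 0.960 to 0.988 over 8 biopsies. For CXCR2 they were CERT1, YTHDC1, ITGB1, PCBP1 and ADAM12, with r from 0.979 to 0.990. All of these varied much less than S100A8 did. SDCBP2, for example, was at 20.7 to 23.8 CPM over injected sites and 20.5 to 26.8 CPM over control sites. Without site 7b, r was 0.93 to 0.98 for the genes like S100A8 and 0.93 to 0.96 for those like CXCR2. Each set was picked as the highest r of 13583 genes on 8 biopsies, so high values come with the picking.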

How the data were processed

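RNA of 8 whole skin biopsies from 2 pigs was sequenced as total RNA after RiboZero Gold depletion, per the labels' protocols. Tools listed in the submitters' processing notes are STAR 2.5.1a, featureCounts 1.4.6-p5 (Subread) and bcl2fastq, with build Sscrofa11.1. Whether counting used strand is not stated. The authors deposited whole-number counts per gene, per the file headers, as 1 table of all biopsies and as single files. The single files also hold CPM and RPKM, which the authors computed from the counts and gene lengths, and which were only checked against the counts. The file of control site 7b of pig 13 holds 607 complete genes, and its counts were taken from the table instead. Another 425 genes appear repeatedly with equal counts and were used once.

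Genes were filtered with filterByExpr (minimum count 10), scaled by TMM and tested with edgeR 4.0.16 in R 4.3.3 (robust quasi-likelihood F test, treatment and pig in the model), with Benjamini-Hochberg adjustment over 19862 genes and a threshold of 0.05. The labels name the animal of each biopsy. Deviations from the group means correlated at 0.25 to 0.54 within a pig and -0.49 to -0.28 across pigs. DESeq2 1.42.0, RLE scaling, no filter, no robust estimation, no block and leaving out each biopsy were tried as alternatives. The procedure was tested on simulated counts, drawn without a difference between pigs and without an outlying biopsy. That test therefore does not cover these features of the data. For likeness, 0.5 was added to CPM before taking log2.

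The members and the 16 gene lists were chosen with earlier results of these data known. Named genes were all members, the genes of the lists, and the 5 genes most like S100A8 and CXCR2. No sequences are shown. Results of some list genes are not reported here.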

Additional observations from a re-analysis of the deposited data

Results flagged for a closer look

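Among the genes reported here, in 7 of 60 groups of 4 biopsies, 1 value lay farther from the other 3 than Dixon's 95% limit allows. The groups came from 30 genes, the members included, chosen with earlier results of these data known. About 1 of 20 groups of independent, normal values would pass the limit, but these groups share biopsies. The 7 of 60 is therefore a description, without a test against chance. In these 7 the value was that of control site 7b of pig 13. There S100A8 was at 93.9 CPM, against 8.48 to 17.0 CPM in the other controls, S100A9 at 114 CPM against 10.3 to 13.8 CPM, and S100A12 at 170 CPM against 19.0 to 40.8 CPM. S100A7 was at 49.5 CPM against 0.0605 to 0.706 CPM, MMP9 at 108 CPM against 5.74 to 9.89 CPM, CSTA at 178 CPM against 23.7 to 39.9 CPM and CXCL8 at 20 CPM against 0.242 to 2.12 CPM.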

How the results depend on the processing

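Of 104 alternative values of the members' fold changes, 103 kept their direction and none was called, with a smallest adjusted p of 0.255. The exception was S100A9 without site 7b, at 0.17. Leaving out 1 biopsy gave ranges of -1.54 to -0.29 for S100A8, -1.24 to 0.17 for S100A9, -1.29 to -0.09 for S100A12, -0.76 to -0.07 for CXCR2, -0.89 to -0.38 for MMP25, -0.56 to -0.12 for TREM1, -0.24 to -0.09 for NCF1 and 0.05 to 0.28 for CSF3R. Without the replicate block, S100A8 had -1.02 and MMP25 -0.48, and no member's direction changed. Of 88 alternative interaction values 14 turned sign and none was called (smallest adjusted p 0.0806). Leaving out 1 biopsy gave -2.72 to 0.51 for S100A8, -1.85 to 1.51 for S100A9, -2.33 to 0.84 for S100A12 and -1.04 to 0.69 for CXCR2, each lowest without site 7b and highest without control site 6b of pig 13, and the interaction of S100A12 was 0.00 with DESeq2 and with RLE scaling. Over all genes, DESeq2 called 48 higher and 10 lower, leaving out 1 biopsy gave 3 to 19 higher and 0 to 1 lower (19 without site 7b), and without the replicate block 6 were higher. For the interaction DESeq2 called 24 and 62, no filter 3 and 5, and leaving out 1 biopsy 0 to 143 and 0 to 170, the highest without control site 6b of pig 13. The cause of these shifts was not tested. Levels per kilobase moved by less than 1 SD without TMM scaling. TREM1, at 8 to 33 counts, is the member whose precision depth limits most.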
